A study of Mus musculus with 6 samples.

Results

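The probe sets of mouse chromosome 10 were followed along the chromosome to see whether values that were lower in Sox2 shRNA cells lay in continuous segments. A probe set was taken where the deposited annotation named exactly 1 gene for it and gave chromosome 10 as the first place it aligned to, and 970 of the 21556 probe sets tested met that rule, for 611 genes. Chromosome 10 had been picked because many of its values were lower in the same comparison, so every count and difference along it is a description of these 6 arrays and no test was made of the chromosome as a whole. The cells were mOS482, osteosarcoma cells of the mouse whose tumour of origin arose spontaneously and is described in the labels as RB p53 null, and both groups share that line and that background. The Sox2 shRNA group was infected stably with a short hairpin RNA against Sox2 and the scrambled shRNA group with a scrambled hairpin. Both were selected in hygromycin and grown as triplicate plates, with 1 Affymetrix 430A 2.0 array per plate and 3 arrays per group. Each hairpin was thus represented by 1 infected line, and the spread between arrays is that between plates of 1 line, which may be technical.

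Osteosarcoma genomes are known for chromosomes that are gained, lost and rearranged in part or whole, and loss or gain of a stretch of DNA can move the RNA of many neighbouring genes in 1 direction. A transcription factor such as SOX2, by contrast, binds at many places on every chromosome, and the genes it acts on need not be neighbours. DNA copy number was not measured here. In RNA from a whole culture, fewer cells of a kind and less RNA per cell cannot be told apart.

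Promoters of 5 genes are shown, picked for the size of their changes. Zwint had the largest fall on the chromosome, Wasf1, Cct2 and Esyt1 the largest falls in the 3 windows with the lowest medians, and Sash1 the largest rise among genes with a promoter entry. Wasf1 and Cct2 were chosen after their values were seen. Each runs from 250 bases before to 50 bases after the gene's start and is taken from RefSeq on GRCm38.p6, 5′ to 3′ along the gene's strand. Capitals mark matches on either strand to 6 short motifs: GGGCGG for SP family factors, CCAAT for NFY, TATAAA for the TATA box, ATTGTT for SOX proteins, CACGTG for E-box factors and GGAATG for TEAD factors. In Esyt1 2 neighbouring GGGCGG matches share 1 base, and no other matches overlap. Zwint lies at chr10:72654596-72654895 on the plus strand, Wasf1 at chr10:40883284-40883583 on the plus strand, Cct2 at chr10:117063803-117064102 on the minus strand, Esyt1 at chr10:128525810-128526109 on the minus strand and Sash1 at chr10:8886021-8886320 on the minus strand.
Zwint: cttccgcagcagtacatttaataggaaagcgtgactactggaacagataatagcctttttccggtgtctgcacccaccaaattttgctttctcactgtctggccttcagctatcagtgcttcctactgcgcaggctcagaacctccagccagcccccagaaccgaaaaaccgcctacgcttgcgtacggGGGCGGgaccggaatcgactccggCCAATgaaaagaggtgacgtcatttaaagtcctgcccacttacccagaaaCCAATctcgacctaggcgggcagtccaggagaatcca
Wasf1: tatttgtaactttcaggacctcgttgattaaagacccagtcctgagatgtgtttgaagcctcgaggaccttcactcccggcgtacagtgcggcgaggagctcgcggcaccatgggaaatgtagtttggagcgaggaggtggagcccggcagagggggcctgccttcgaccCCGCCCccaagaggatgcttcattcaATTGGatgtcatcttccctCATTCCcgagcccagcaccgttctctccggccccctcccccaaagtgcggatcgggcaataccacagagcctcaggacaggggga
Cct2: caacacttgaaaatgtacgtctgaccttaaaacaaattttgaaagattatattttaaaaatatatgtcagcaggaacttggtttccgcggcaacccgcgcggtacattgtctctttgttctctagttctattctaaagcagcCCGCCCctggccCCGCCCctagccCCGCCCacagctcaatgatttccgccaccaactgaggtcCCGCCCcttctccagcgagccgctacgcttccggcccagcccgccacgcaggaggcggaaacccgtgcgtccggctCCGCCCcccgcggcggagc
Esyt1: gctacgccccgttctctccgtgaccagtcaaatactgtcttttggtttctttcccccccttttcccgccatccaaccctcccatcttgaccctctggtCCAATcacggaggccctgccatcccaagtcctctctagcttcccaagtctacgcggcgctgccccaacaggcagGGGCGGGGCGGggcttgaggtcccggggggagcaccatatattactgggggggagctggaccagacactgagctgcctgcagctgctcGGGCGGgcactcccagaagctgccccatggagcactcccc
Sash1: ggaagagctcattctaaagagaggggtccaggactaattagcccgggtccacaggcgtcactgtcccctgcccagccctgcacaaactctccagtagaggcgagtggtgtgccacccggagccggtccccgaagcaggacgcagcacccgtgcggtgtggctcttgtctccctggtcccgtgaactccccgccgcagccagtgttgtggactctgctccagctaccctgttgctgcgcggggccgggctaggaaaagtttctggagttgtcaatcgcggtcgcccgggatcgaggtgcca
The promoters of the 4 genes that fell held 3, 3, 5 and 4 matches in the order printed, and that of Sash1 held 0. Nothing is read from this contrast, because the genes were picked as extremes. All other positions in the text are those of the deposited annotation, whose genome build is not stated and which is not GRCm38.p6: the RefSeq starts of the same genes lay a median of 537154 bases further on.

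The Sox2 probe set, on chromosome 3, was not lower in the Sox2 shRNA arrays, with deposited log2 values, centred near the scrambled arrays, of 0.17, 0.055 and 0.58, against 0.069, -0.039 and -0.033 in the scrambled arrays, a difference of 0.27 ± 0.15 (SE; limma, adjusted p = 0.18). Sox2 shRNA arrays are therefore, here and throughout, the arrays labelled so, and the part of the transcript that the probe set reads relative to the hairpin is not stated in these sources. The 9 hybridisation spike-in probe sets, which carry RNA added in the laboratory, had means of 1.29, 0.581 and 0.585 in the Sox2 shRNA arrays, against 0.244, -0.138 and -0.228 in the scrambled arrays. With their level as a covariate, the median of chromosome 10 relative to all probe sets was -0.20, against -0.15 without it. In that level every Sox2 shRNA array lay above every scrambled array, so the fit with the covariate cannot fully separate group from spike-in level. A call lost in that fit, here and below, is therefore not shown to be due to the spike-in level. Sox2 shRNA array 1 stood apart: over all probe sets its values, taken relative to the scrambled mean, correlated at 0.832 and 0.812 with arrays 2 and 3, which correlated at 0.911. Markers fixed for other cell types could not be checked for presence, since levels had been removed; the 5 leukocyte markers measured averaged 0.390, 0.181 and 0.232 in the Sox2 shRNA arrays, against 0.0741, -0.0781 and -0.0659 in the scrambled arrays, the 4 endothelial ones 0.545, 0.0416 and 0.288, against 0.0527, 0.000343 and -0.0353, and the 4 epithelial ones 0.145, 0.219 and 0.106, against 0.0133, 0.0512 and 0.00866. The 7 osteoblast markers measured averaged 0.536, 0.601 and 0.579 in the Sox2 shRNA arrays, against -0.0417, 0.0295 and 0.0580 in the scrambled arrays, with single differences from -0.42 for Col1a2 to 3.52 for Col1a1. Between these lay Sp7 at -0.30, Runx2 at -0.16, Spp1 at 0.093, Ibsp at 0.17 and Alpl at 0.99. Single differences ran from -0.19 (Cd68) to 0.76 (Csf1r) in the leukocyte list, 0.11 to 0.50 in the endothelial one and -0.036 to 0.34 in the epithelial one. The part of these markers in the chromosome 10 values was not tested.

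The probe sets of chromosome 10 were lower more often than higher in Sox2 shRNA arrays. A probe set was called where its adjusted p in limma, with Benjamini-Hochberg adjustment over all 21556, was under 0.05, and every difference is the Sox2 shRNA mean less the scrambled shRNA mean, in log2 units. On chromosome 10, 345 of 970 probe sets were called lower, which is 35.6%, against 20.5% of all probe sets tested. Called higher were 94, or 9.69%, against 14.6% of all, and the remaining 531 were not called. At a change of at least 2-fold, 127 were lower, or 13.1%, beside 4.95% of all, and 13 were higher, beside 2.76% of all. Groups that did not overlap, with every Sox2 shRNA array below every scrambled array, were seen for 394 members, or 40.6%, beside 26.9% of all, and the opposite order for 178, or 18.4%, beside 26.5% of all. Nothing is read from these shares, because the comparison they come from chose the chromosome.

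The median difference of the chromosome was -0.078, against 0.075 over all probe sets tested, and so lay 0.15 below that array-wide median. The middle of the distribution ran from a lower quartile of -0.67 to an upper quartile of 0.21, against -0.30 and 0.29 over all probe sets. The lower quartile thus lay further out than over all probe sets, and the upper quartile was above 0 on the chromosome too. Members called lower had a median difference of -0.85, where those over all probe sets had -0.72. Each Sox2 shRNA array showed the offset when set against the mean of the scrambled arrays: the chromosome's median was -0.051, -0.13 and -0.14 in Sox2 shRNA arrays 1 to 3, against array-wide medians of 0.065, 0.038 and 0.028 in the same arrays. Below the scrambled mean were 53.3%, 59.6% and 59.5% of members in those arrays, beside 44.9%, 45.4% and 46.6% of all probe sets.

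The number of lower calls was between 273 and 383 when any 1 array was left out, and the highest was without Sox2 shRNA array 1, where 383 members were called lower and 108 higher. In that fit 22.5% of all probe sets were called lower and 18.0% higher. The 273 were without scrambled array 3, where 13.2% of all probe sets were called lower. The number of higher calls depended on the scrambled arrays, with 43, 39 and 31 left without scrambled array 1, 2 and 3, while over all probe sets the share called higher was 8.92%, 7.88% and 7.05% in those fits. The fit with the hybridisation spike-in level as a covariate left 155 lower and 20 higher, and 5.99% and 4.70% of all probe sets.

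**Figure D1:**
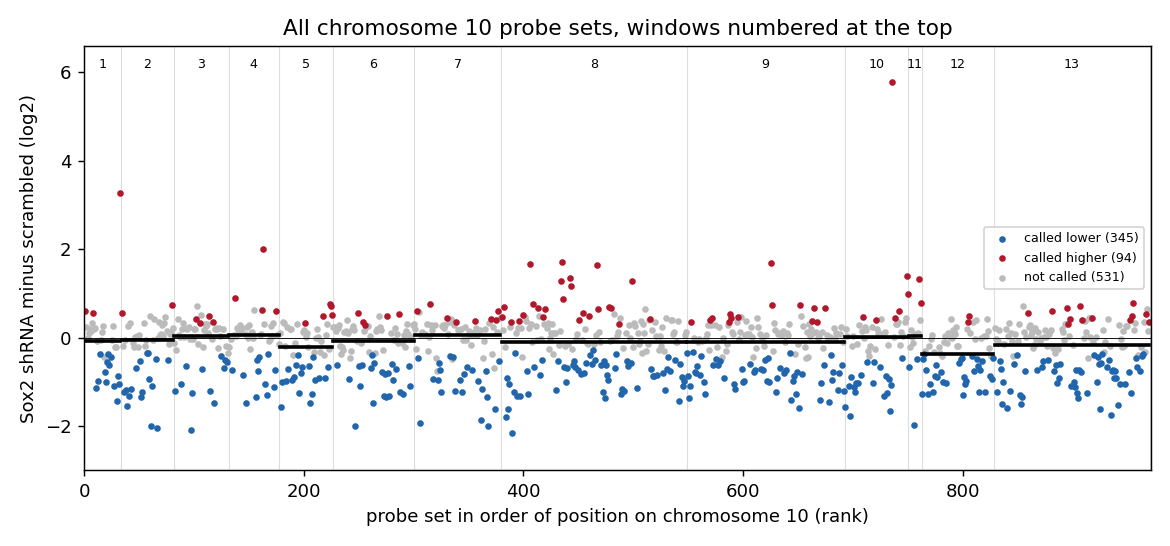
Log2 difference (Sox2 shRNA minus scrambled shRNA) of the 970 chromosome 10 probe sets in order of position, with probe sets called lower, called higher and not called in separate colours and lines at the edges of 10 Mb windows. Lower calls (345) are spread along the whole order, among probe sets that were not called (531) and higher calls (94).

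Cut into windows of 10 Mb, the chromosome gave 13 windows of 12 to 169 probe sets, numbered from the start of the chromosome. In all 13 the median difference was below the array-wide median of 0.075, in the mean of the Sox2 shRNA arrays and in each of the 3 arrays. In all 13 more probe sets were called lower than higher. The share called lower ran from 24.0% to 47.0% over the windows and the share called higher from 3.03% to 16.7%. More lower than higher calls were also seen in 160 of 253 windows, or 63.2%, on the other chromosomes, and in 15 of 15 on chromosome X. The offset of chromosome 10 was uneven in size and in places close to 0. Relative to the array-wide median, windows 3, 4, 7 and 11 had only -0.030, -0.024, -0.012 and -0.031. Leaving out 1 array put some of them above it: window 3 at 0.0086 without Sox2 shRNA array 1, window 4 at 0.0057 without scrambled array 1 and window 7 at 0.033 without Sox2 shRNA array 2. Windows 1 and 2 had median differences of -0.087 and -0.060, windows 3 and 4 of 0.045 and 0.051, and window 5 of -0.22. Windows 6 and 7 had -0.067 and 0.063, windows 8 and 9, which hold most with 169 and 144 probe sets, -0.090 and -0.096, and windows 10 and 11 0.0054 and 0.044. Windows 12 and 13, at the far end, had -0.36 and -0.17. Windows 5 and 12 were low in all 16 alternative fits, and the smaller medians moved more. Window 7 had -0.22 with the probe sets of each gene averaged and -0.16 with the spike-in covariate, both below 0. Leaving out 1 array moved window 1 to -0.20 (without Sox2 shRNA array 3) and -0.17 (without scrambled array 1), window 2 to -0.14 (without Sox2 shRNA array 1) and window 6 to -0.15 and -0.010 (without Sox2 shRNA array 1 and 2). For scale, the window medians of 1 scrambled array set against the other scrambled arrays lay between -0.049 and 0.077.

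A window was counted as low where its median was at least 0.2 below the array-wide median, and 3 windows met that: window 5 at 0.29 below, window 12 at 0.43 below and window 13 at 0.24 below. Window 13 was the one just inside the threshold and window 9, at 0.17 below, the one just outside. Neighbouring low windows were joined into a segment, which gave 1 segment on the chromosome, windows 12 and 13 from 110 to 130 Mb, while window 5 stood alone. Which windows joined depended on the processing. With the probe sets of each gene averaged, the low neighbours were windows 9 and 10, and with the spike-in covariate they were windows 8 and 9 and windows 11 to 13. Only window 12 was low in each Sox2 shRNA array, at -0.36, -0.41 and -0.38 relative to the array-wide median in arrays 1 to 3. Window 5 had -0.19, -0.22 and -0.36 and window 13 -0.20, -0.18 and -0.26 by the same measure. The segment rests on window 13, whose relative median was -0.18 with the probe sets of each gene averaged and -0.16 without probe sets of the less specific _x_at and _s_at kinds, both short of the threshold.

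**Figure D2:**
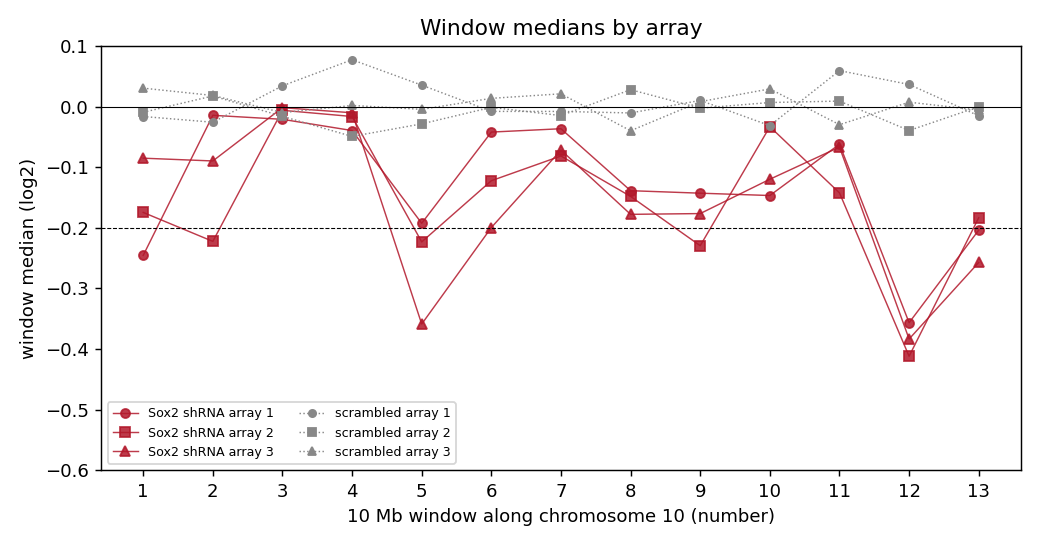
Median of the chromosome 10 probe sets in each 10 Mb window, for each Sox2 shRNA array against the mean of the scrambled arrays after subtraction of the array-wide median (log2 scale), and for each scrambled array against the other scrambled arrays. All Sox2 shRNA points lie below 0, window 12 lies lowest at -0.36 to -0.41, and scrambled arrays lie between -0.049 and 0.077.

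Finer windows broke the pattern up. Of 22 windows of 5 Mb with at least 10 probe sets, 9 were low and 5 lay above the array-wide median. The 10 Mb windows with a middling median could hold both: the 5 to 10 Mb stretch had a median difference of -0.37 and the 10 to 15 Mb stretch -0.21, against 0.090 from 15 to 20 Mb and 0.15 from 20 to 25 Mb. The stretch from 110 to 115 Mb was the lowest, with a median of -0.43, 13 of 25 probe sets called lower and 0 called higher. In 95 to 100 Mb, which holds Dcn and Kitl, the median was 0.21, with 5 called lower and 5 called higher.

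Next to one another, genes of the chromosome were only loosely alike. With the members of each gene averaged, the Pearson correlation between a gene's difference and that of the next gene along was 0.064 over 611 genes, against 0.0068 to 0.19 with a median of 0.11 on the other 19 chromosomes. Neighbouring probe sets share arrays and can share transcripts, so this is a description. Among the 348 genes with a called probe set, 271 were lower on average over their called probe sets and 77 higher. The longest run of consecutive lower genes among them held 18, from Mdm2 at 117125957 to Tspan31 at 126504342, and the longest run of higher genes held 3. On other chromosomes the longest lower run held between 5 and 32 genes, and the longest higher run between 2 on chromosome X and 23 on chromosome 7. Of genes with a called probe set, 77.9% were lower on average on chromosome 10. That share ran from 34.2% on chromosome 6 to 81.4% on chromosome X elsewhere.

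**Figure D3:**
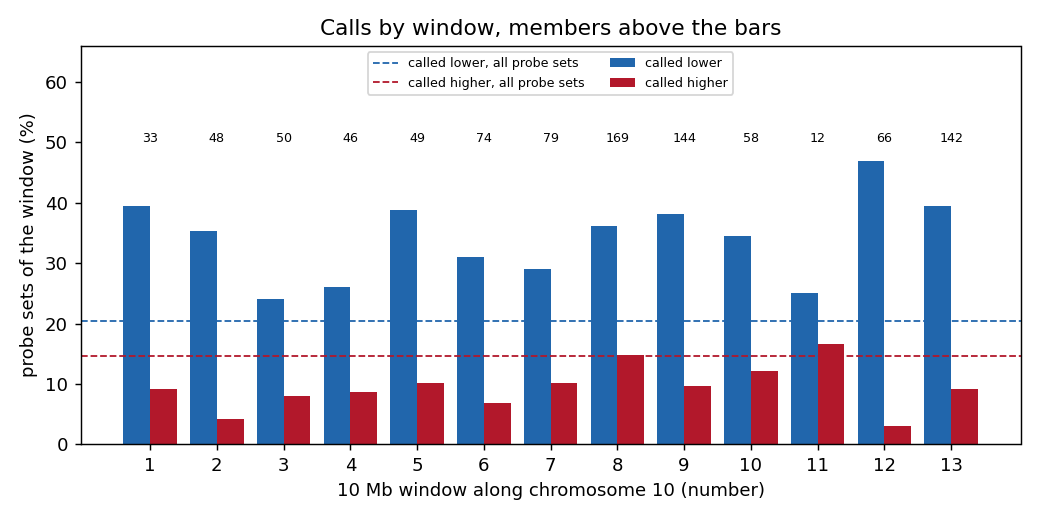
Percent of probe sets called lower and called higher (limma, adjusted p under 0.05) in each 10 Mb window of chromosome 10, with the shares over all probe sets tested (20.5% lower, 14.6% higher) as lines. Lower calls outnumber higher calls in all 13 windows, from 24.0% lower in window 3 to 47.0% in window 12. On the other chromosomes, not shown, they did so in 160 of 253 windows.

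In the segment at the far end, the first window held 31 of 66 probe sets called lower and 2 called higher. Its largest falls, outside the rule for named genes and chosen after their values were seen, included Cct2, a subunit of the chaperonin that folds actin and tubulin, Krr1, a factor of small ribosomal subunit assembly, and Rap1b, a small GTPase of cell adhesion. All 3 probe sets of Cct2 were called lower, at -1.30, -0.90 and -1.05. The first of them had -1.64, -1.11 and -1.12 in Sox2 shRNA arrays 1 to 3, against -0.12, 0 and 0.13 in scrambled shRNA arrays 1 to 3, so the groups lay far apart. Rap1b was called lower at all 3 probe sets, from -1.22 to -0.49. Krr1 was called at -1.26 while its other probe set, at -0.19, was not called. The smallest fall of Rap1b lost its call without Sox2 shRNA array 2 or any scrambled array, and with the spike-in covariate the calls of Krr1 and of 2 probe sets each of Cct2 and Rap1b were lost. Window 12 also held Mdm2, the ubiquitin ligase that keeps p53 low, with 1 probe set called lower at -0.42 and 1 not called at 0.36. The call of Mdm2 was lost without Sox2 shRNA array 2 and without scrambled array 1 or 3, where its adjusted p in limma was 0.0574, 0.0765 and 0.104. Adding the spike-in covariate also ended it, with an adjusted p in limma of 0.0891, and there the other probe set turned to -0.49.

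The second window of the segment held 56 of 142 probe sets called lower and 13 called higher. It carries 2 cyclin-dependent kinases, Cdk4, which drives entry into the cell cycle, and Cdk2, which acts at the start of DNA replication. All 3 probe sets of Cdk4 were called lower, at -1.30, -1.50 and -1.33, and the middle one had -1.69, -1.39 and -1.44 in Sox2 shRNA arrays 1 to 3, against -0.12, -0.035 and 0.14 in scrambled shRNA arrays 1 to 3. Cdk2 was called lower with -1.25 ± 0.13 (SE, n = 3 arrays per group). Atp5b, the beta subunit of the mitochondrial ATP synthase, was -1.37 ± 0.19, and its values were -1.78, -1.11 and -1.17 in Sox2 shRNA arrays 1 to 3, against -0.15, 0.05 and 0.15 in scrambled shRNA arrays 1 to 3. The kinase Tbk1, which passes on signals of innate immune sensors, was called lower at both probe sets, with -1.51 and -1.01. With the spike-in covariate, 1 of the 3 probe sets of Cdk4 and the first of Tbk1 were no longer called, at -0.60 and -0.82. Esyt1, which tethers the endoplasmic reticulum to the plasma membrane, had the largest fall of the window with -1.75 ± 0.26. It had -2.23, -1.11 and -1.92 in Sox2 shRNA arrays 1 to 3, against -0.13, 0 and 0.13 in scrambled shRNA arrays 1 to 3, so that the Sox2 shRNA arrays were wide apart among themselves, and its difference was -1.004 and not called with the spike-in covariate.

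At the start of the segment the values changed direction between neighbours. The 3 nearest probe sets outside were Pawr, a pro-apoptotic protein, called higher at 1.33, and 2 probe sets of Syt1, a calcium sensor of vesicle release, at 0.40, not called, and 0.79, called higher. The call of Syt1 was lost without Sox2 shRNA array 1 or 3 and without any of the scrambled arrays. Just inside lay Csrp2, a LIM-domain protein of the actin cytoskeleton, called lower at -1.28, then Rpl6 at -0.48 and Nap1l1, a nucleosome assembly protein, at -0.37. Both of these last calls were lost without any of the scrambled arrays, and the probe set of Rpl6, a ribosomal protein gene that RefSeq places on chromosome 5, aligned to 5 places. None of the 3 was called with the spike-in covariate, at -0.69, -0.14 and -0.52. The last probe sets of the chromosome were not low: Mettl7b was 0.65 and not called, and the 2 probe sets of Neurod4, a neuronal transcription factor, were 0.15, not called, and 0.36, called higher but not without Sox2 shRNA array 3 or any of the scrambled arrays.

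Window 5, from 40 to 50 Mb, had 19 of 49 probe sets called lower and 5 called higher. Its largest fall was Wasf1, a regulator of actin branching, with -1.56 ± 0.18. Wasf1 had -1.85, -1.72 and -1.15 in Sox2 shRNA arrays 1 to 3, against 0.046, -0.069 and -0.014 in scrambled shRNA arrays 1 to 3. The stress-response gene Sesn1, a sestrin, was called lower at 2 of its 3 probe sets, with -0.95 and -0.90, and its remaining one, at -0.40, was not called. Foxo3, a forkhead factor next to it on the chromosome, was called lower at 1 of 3 probe sets, at -0.62, a call that was lost without scrambled array 3 (limma, adjusted p = 0.0626) and, at -0.19, once the spike-in level was a covariate (adjusted p = 0.56).

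The largest falls on chromosome 10 lay in 8 different windows, and 1 of the 12 was in the segment. Zwint, a kinetochore protein needed for chromosome segregation, fell most, with -2.15 ± 0.21 or 4.44-fold. It had -2.66, -1.99 and -1.79 in Sox2 shRNA arrays 1 to 3, against -0.13, 0.055 and 0.10 in scrambled shRNA arrays 1 to 3. Zwint has 6 probe sets, of which 4 were called lower and 2, at 0.10 and 0.21, were not called. Sgk1, a kinase induced by serum and glucocorticoids, fell by 2.09 ± 0.15. It had -2.40, -1.91 and -1.88 in Sox2 shRNA arrays 1 to 3, against -0.056, 0 and 0.13 in scrambled shRNA arrays 1 to 3. Sirt1, an NAD-dependent deacetylase, had the smallest standard error among the 12 largest falls, with -1.81, -1.73 and -1.93 in Sox2 shRNA arrays 1 to 3, against 0.022, 0 and 0.11 in scrambled shRNA arrays 1 to 3. Its difference was -1.87 ± 0.10, and no array of either group came near the other group.

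Other large falls were of genes with varied roles. They were Reps1, an adaptor of endocytosis, at -2.04, Nrbf2, part of an autophagy lipid kinase complex, at -2.005, and Asf1a, a histone chaperone, at -2.005. Cited2, a co-regulator that binds CBP and p300, was called lower at both probe sets, with -1.99 and -1.10. The amino acid transporter Slc6a15 had -1.97, Tfam, which packages and transcribes mitochondrial DNA, -1.79, and Tmpo, a lamin-binding protein of the nuclear envelope, -1.77. For Asf1a and Tmpo these were the lowest of 2 and 4 probe sets, of which the highest were at -0.086 and 0.038. Sgpl1, which degrades sphingosine-1-phosphate, had -1.93 ± 0.44 at 1 probe set, with -3.10, -1.53 and -1.16 in Sox2 shRNA arrays 1 to 3, against -0.14, -0.011 and 0.14 in scrambled shRNA arrays 1 to 3. Its other probe set was at 0.064, and the first was no longer called with the spike-in covariate, at -0.26.

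Against the drift of the chromosome, a few genes rose strongly. Dcn, which encodes decorin, a small leucine-rich proteoglycan of the collagen matrix, rose by 5.77 ± 0.16, or 54.7-fold. It had 5.52, 5.72 and 6.07 in Sox2 shRNA arrays 1 to 3, against 0.15, 0 and -0.16 in scrambled shRNA arrays 1 to 3, the widest gap between the groups on the chromosome. Sash1, a signalling scaffold protein, rose by 3.27 ± 0.12, or 9.67-fold, with 3.09, 3.24 and 3.39 in Sox2 shRNA arrays 1 to 3, against 0.0084, -0.18 and 0.07 in scrambled shRNA arrays 1 to 3. The remaining large rises were smaller. Lama4, a laminin chain of basement membranes, rose by 2.01 ± 0.13 at 1 probe set and was 0.32 and not called at the other. Txnrd1, cytosolic thioredoxin reductase, rose by 1.69 at the highest of its 3 probe sets, and the lowest was at -0.31. Ggt1, an enzyme that breaks down glutathione outside the cell, rose by 1.67. Dnmt3l, an inactive partner of the de novo DNA methyltransferases, rose by 1.63. Kitl, the ligand of the KIT receptor, rose by 1.401 at its highest probe set. The calls of the highest Txnrd1 probe set and of that Kitl probe set were lost with the spike-in covariate, at 0.51 and 0.37.

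**Figure D4:**
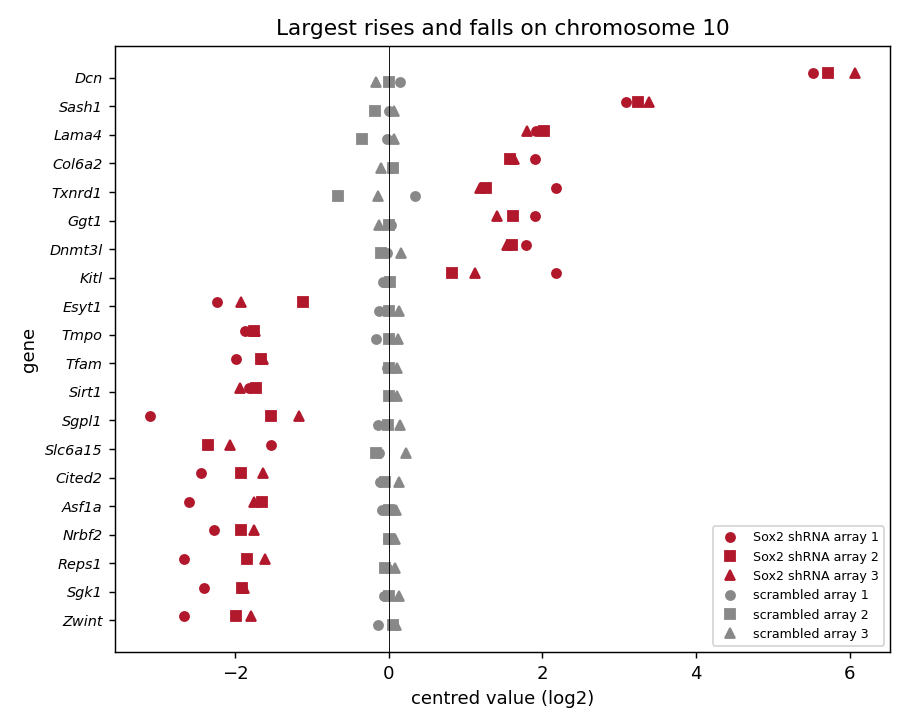
Deposited log2 values, centred near the scrambled arrays, of the 12 largest falls and 8 largest rises on chromosome 10, with 1 point per array. The Sox2 shRNA points of Dcn lie at 5.52 to 6.07, against -0.16 to 0.15 in the scrambled arrays, and no pair of groups overlaps, since non-overlap was part of the choice.

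Genes of chromosome 10 were also grouped by role, in lists chosen with earlier results of these arrays known. All their members lie on chromosome 10, where 35.6% of probe sets were called lower and 9.69% higher. A list's shares set against those over all probe sets therefore carry the chromosome's own offset. The metabolism and housekeeping list had the most lower calls: 15 of its 17 measured genes had a probe set called lower, 0 had one called higher, and the median over its 31 probe sets was -0.62, against 0.075 over all probe sets tested. Called lower were 64.5% of those probe sets, against the 20.5% over all. Bsg, the membrane glycoprotein basigin, was -1.21, and citrate synthase, Cs, was called lower at all 3 probe sets, from -1.61 to -0.56. Cystatin B, Cstb, was called lower at both, with -0.84 and -0.95. Ndufs7, a subunit of respiratory complex I, was called at -1.19 and not at -0.30. Not called at any probe set were Cirbp, a cold-induced RNA-binding protein, at -0.20, and Hsp90b1, a chaperone of the endoplasmic reticulum, at -0.47 and 0.13. With the spike-in covariate 5 of the 31 probe sets were called lower and the median was -0.42, and the 3 of Cs and 1 of the 2 of Cstb were among those lost.

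In the cell cycle and growth control list, 9 of 14 measured genes had a probe set called lower, 1 had one called higher and 4 had none called, with a median of -0.33 over 28 probe sets, of which 46.4% were called lower and 3.57% higher, against 20.5% and 14.6% over all probe sets. Cdk1, the kinase that drives mitosis, fell by 1.62 ± 0.14, with -1.92, -1.44 and -1.53 in Sox2 shRNA arrays 1 to 3, against -0.10, 0.0051 and 0.06 in scrambled shRNA arrays 1 to 3. Every Sox2 shRNA array was below every scrambled array. Btg1, known to restrain proliferation, fell at both probe sets, with -1.67 and -1.07, in the same direction as the kinases. Ccn2, a matricellular growth factor and a target of YAP signalling, fell by 0.72. The rise was of Ddit4, an inhibitor of mTOR signalling, at 0.53.

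The chromatin and transcription list had 5 of 12 measured genes called lower, 1 called higher and 1 called in both directions, with a median of -0.27 over 22 probe sets, of which 45.5% were called lower and 9.09% higher, against 20.5% and 14.6% over all probe sets. With the spike-in covariate 4 were called lower and 1 higher, and without Sox2 shRNA array 1 the median was -0.17. Hdac2, a histone deacetylase, was -1.35 ± 0.15 and Jmjd1c, of the histone demethylase family, -1.33 ± 0.11. Tcf3, a helix-loop-helix factor, was called lower at all 3 probe sets, from -1.10 to -0.90, though at none of them with the spike-in covariate. Baz2a, which takes part in silencing ribosomal RNA genes, was the gene called in both directions, with -0.73 and -0.78 at 2 probe sets and 0.72 at the other. That rise was lost without scrambled array 2 or 3 and turned to -0.12 once the spike-in level was a covariate (adjusted p = 0.668 in limma), where 1 of the 2 falls also lost its call (adjusted p = 0.101).

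The extracellular matrix list went the other way. Of its 16 measured genes, 6 had a probe set called higher, 2 had one called lower and 8 had none called, and its median over 24 probe sets was 0.32, with 33.3% called higher and 8.33% lower, against 14.6% and 20.5% over all probe sets. With the spike-in covariate the median was 0.15, with 6 called higher and 0 lower. Close together in window 8, the collagen VI chains Col6a2 and Col6a1 and the basement membrane collagen Col18a1 were called higher at all of their probe sets, with 1.71 and 1.29 for Col6a2, 0.87 for Col6a1 and 1.35 and 1.17 for Col18a1. The larger Col6a2 probe set had 1.90, 1.58 and 1.63 in Sox2 shRNA arrays 1 to 3, against 0.04, 0.06 and -0.10 in scrambled shRNA arrays 1 to 3, with no overlap. Dcn heads a row of 4 related proteoglycan genes in window 10, and its neighbours did not share the size of its rise: Lum, lumican, was 0.0079, Kera, keratocan, 0.43 and Epyc, epiphycan, 0.31. Of those 3, Kera alone was called, and not when Sox2 shRNA array 2 or 3 or any scrambled array was left out. Timp3, an inhibitor of matrix metalloproteinases, was called lower at 1 of 4 probe sets, at -0.82, with the other 3 between -0.22 and 0.48. With the spike-in covariate, that call of Timp3 and the smaller rise of Col18a1 were lost, at -0.32 and 0.67.

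The signalling and inflammation list was mixed, with 6 of 18 measured genes called lower, 5 called higher and 7 not called. Of its probe sets 27.6% were called lower and 24.1% higher, against 20.5% and 14.6% over all probe sets. Over chromosome 10 as a whole these shares were 35.6% and 9.69%, so the list was called lower less often than its own chromosome. The list's median was 0.12 over 29 probe sets and -0.039 with the spike-in covariate, so the sign turned with that covariate, under which 4 were called lower and 1 higher. Without Sox2 shRNA array 3 it was 0.27, and 4 were called higher in place of 7. Besides Sgk1 and Tbk1, the kinase Fyn was called lower at both probe sets, with -1.05 and -1.30. Stat6, which transmits signals of interleukins, was called at -0.91 and not at -0.25, and Ifngr1, a chain of the interferon gamma receptor, was -0.51. The calls of Ifngr1 and of the larger fall of Fyn were lost with the spike-in covariate, at -0.48 and -1.03. Apart from Kitl, the higher calls were small: Igf1 at 0.35 and 0.68, Prdm1 at 0.49, Stat2 at 0.44 and Egr2 at 0.41. Each of these 5 calls was lost when any of the scrambled arrays was left out, with adjusted p in limma of 0.066 to 0.147 there.

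Probe sets of the same gene often disagreed. Of 237 genes with more than 1 probe set on the chromosome, 31 had all called lower, 4 all called higher, 102 some called lower and the rest not called, and 32 some called higher and the rest not called. In 5 both directions were called, and in 63 no probe set was called. These counts are of chromosome 10 alone, so how usual they are elsewhere is not shown. Of its probe sets 35.6% were called lower and 9.69% higher, beside 20.5% and 14.6% of all probe sets tested. Probe sets of 1 gene share their place on the chromosome. Signal over background could not be set beside these disagreements, because the deposited centring removed the level of each probe set.

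The members also differed by where in the cell their products are found, by component terms of the deposited annotation that were chosen after the data were seen. On chromosome 10, the 83 probe sets of mitochondrial genes had a median of -0.45, and 51.8% were called lower and 7.23% higher. The 299 nuclear ones had a median of -0.22, with 43.8% lower and 6.69% higher. The 74 of the extracellular region had a median of 0.24, with 10.8% lower and 25.7% higher, and the 128 of the plasma membrane 0.15, with 20.3% lower and 14.1% higher. On all other chromosomes these 4 terms stood in the same order: -0.077 for the mitochondrion, -0.011 for the nucleus, 0.17 for the plasma membrane and 0.20 for the extracellular region, where 21.6% were called higher and 8.35% lower. The cytosol and the endoplasmic reticulum did not keep it: on chromosome 10 their medians of -0.29 and -0.35 lay below that of the nucleus, and elsewhere, at 0.043 and 0.047, above it. The shares called lower and higher elsewhere were 29.3% and 10.8% for the mitochondrion and 26.2% and 11.8% for the nucleus. For the plasma membrane they were 11.9% and 18.9%, so higher calls were the more frequent there. None of these differences was tested.

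The promoters of chromosome 10 genes were searched for the same motifs, as a description with no test. Of 570 genes that RefSeq also places on the chromosome, 471 had a promoter entry, and 1 entry was used per gene. GGGCGG, a core match for SP family factors, was found on either strand in 71.9% of 224 promoters of genes called lower, 55.4% of 56 of genes called higher and 47.6% of 187 of genes not called. The same match was in 69.5% of promoters of genes called lower on other chromosomes, 51.0% of those not called there and 35.9% of all 27025 genes of the table. The median ratio of observed to expected CpG was 0.855, 0.495 and 0.498 in the genes called lower, called higher and not called on chromosome 10. Elsewhere it was 0.829, 0.649 and 0.621 in the same order. CCAAT was in 37.9% of promoters of genes called lower, 28 of the 56 of genes called higher and 35.3% of those not called, beside 35.1% of genes called higher on other chromosomes and 37.9% of all genes of the table. ATTGTT, part of the motif that SOX proteins bind, was in 4.46% of promoters of genes called lower (10 promoters), 8.93% of genes called higher and 5.88% of genes not called. Among genes measured on other chromosomes it was in 5.90%, 5.78% and 7.35% in the same order, and in 10.9% of all genes of the table. A match describes the letters in a window of 300 bases and is neither a binding site nor a cause.

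Chromosome 10 shared its low windows with other chromosomes. Over the other 19 chromosomes, 29 of 253 windows were low, or 11.5%, against 3 of 13 or 23.1% on chromosome 10, and these 29 lay on 11 chromosomes. Segments of at least 2 low windows numbered 5 there, on chromosomes 9, 12, 13, 14 and X. Taken singly, chromosome 9 had the same share of low windows as chromosome 10, with 3 of 13. Chromosomes 13, 14 and X had larger shares, at 30.8%, 33.3% and 40.0%. Lower than the lowest window of chromosome 10 were 4 windows elsewhere. Below the array-wide median were 122 of 253 windows, or 48.2%, against 13 of 13 on chromosome 10, and 0 other chromosomes had all of theirs below it. Chromosome X was the nearest in its calls, with 35.4% of 712 probe sets lower, 6.88% higher, a median of -0.044 and 6 of 15 windows low. Chromosomes 6 and 7 lay at the other end, with 9.40% and 9.61% of probe sets lower, 18.2% and 16.5% higher, and medians of 0.15 on both. None of these differences between chromosomes was tested.

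**Figure D5:**
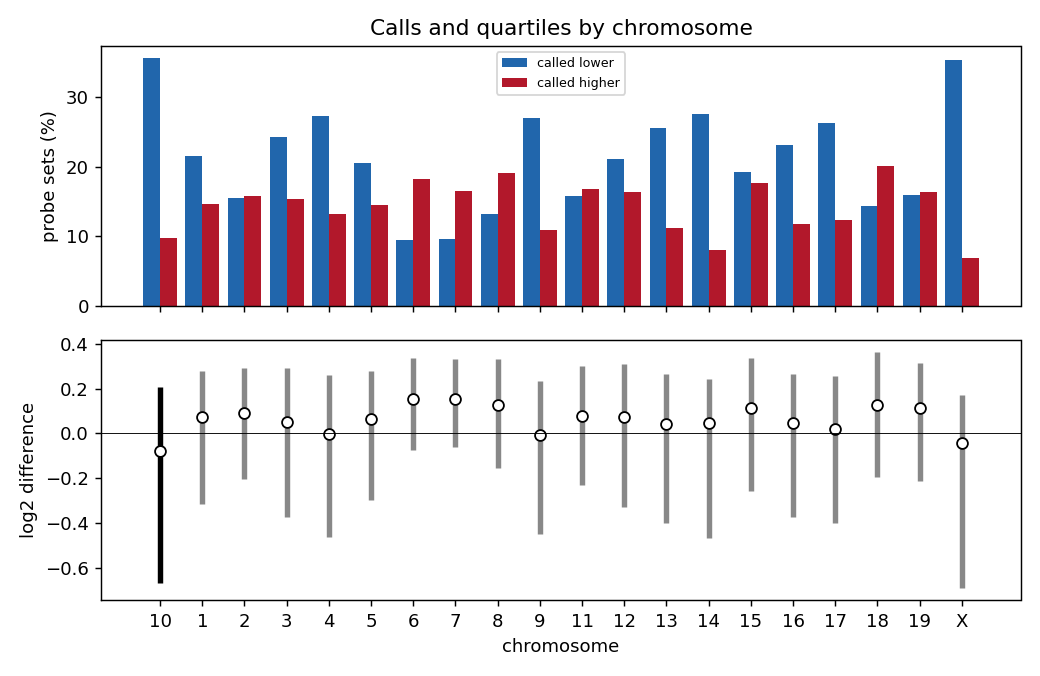
Percent of tested probe sets called lower and called higher (limma, adjusted p under 0.05) on each chromosome. Chromosomes 10 and X have the largest shares called lower (35.6% and 35.4%), and chromosomes 6 and 7 the smallest (9.40% and 9.61%).

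Placement of some probe sets was uncertain. On the chromosome, 64 members aligned to several places, and 35 members had a RefSeq gene on another chromosome. Those 35 had a median of -0.22 with 14 called lower, or 40.0%, and 1 higher, or 2.86%. Conversely, 21 tested probe sets of RefSeq chromosome 10 genes aligned first to another chromosome, with a median of -0.44, 11 called lower, or 52.4%, and 0 higher. Over all probe sets tested 20.5% were called lower and 14.6% higher, and over chromosome 10 these shares were 35.6% and 9.69%. Without the 35, 331 members were called lower and 92 higher, beside 19.8% and 14.6% of all probe sets in that fit. Windows 5, 12 and 13 were again the low ones. This alternative was chosen after the data were seen.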

How the data were processed

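RNA of 6 cultures was read on 6 one-colour Affymetrix 430A 2.0 arrays, 3 labelled Sox2 shRNA and 3 labelled scrambled shRNA. The authors used GCOS 1.4 and RMA, per the submitters' processing notes; its version and other settings are not stated. The deposited values are log2 expression from RMA, with the base taken as log2 because RMA returns it, and both deposited tables hold the same values. In the values themselves, each probe set was centred close to the scrambled arrays, with scrambled array 2 exactly 0 in 37.5% of probe sets, so levels and signal over background are unknown and arrays are compared by differences alone. Of 22690 probe sets, 64 controls, 578 with several genes and 543 with none were left out, which gave 21556 because some met more than 1 of these.

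The fit used lmFit and eBayes of limma 3.58.1 under R 4.3.3, with no covariate, and p-values were adjusted by Benjamini-Hochberg over all 21556 at a threshold of 0.05; errors of differences are its SE. Windows of 10 Mb needed at least 10 probe sets. The script was tested on simulated data. The number of arrays limits the precision. Genes of 21181 probe sets were matched to RefSeq names by Entrez number. Named genes were the 12 largest falls and 8 largest rises among called probe sets with non-overlapping groups (1 probe set a gene, without clone-type symbols), the members of 5 role lists and the 3 probe sets at each side of a segment's edge. The members and lists were chosen with earlier results of these data known. Alternatives were the replicate block, centring, averaging per gene, probe set kinds, window size and threshold, array weights, spike-ins and each array left out.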

Additional observations from a re-analysis of the deposited data

Results flagged for a closer look

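Array control probe sets, which the comparisons above leave out, gave higher values in the arrays labelled Sox2 shRNA than in the scrambled shRNA arrays. The hybridisation spike-ins (BioB, BioC, BioD and Cre, 9 probe sets) averaged 0.819 ± 0.408 in the Sox2 shRNA arrays and -0.0403 ± 0.251 in the scrambled shRNA arrays (SD, n = 3 each), a difference of 0.859 on the log2 scale. The poly-A spike-ins (Dap, Lys, Phe, Thr and Trpn, 15 probe sets) averaged 0.169 ± 0.0733 in the Sox2 shRNA arrays and -0.00391 ± 0.0176 in the scrambled shRNA arrays, a difference of 0.173. Both were singled out because they are signals outside the main measurement that lie above the level of the scrambled arrays.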

How the results depend on the processing

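The median difference and the lowest window median stayed below 0, and lower calls outnumbered higher calls, under every alternative run. Of named probe sets called before, 2 changed sign and lost the call: the rise of Baz2a, at -0.12 with the spike-in covariate and -0.26 with the probe sets of a gene averaged, and the fall of 1 probe set of Psap, at 0.067 with the spike-in covariate. With the hybridisation spike-in level as a covariate, 155 probe sets were called lower and 20 higher, beside 5.99% and 4.70% of all probe sets. In that fit the median difference was -0.21, 6 windows were low and the lowest window median was -0.49. With the probe sets of a gene averaged, 5 windows were low and the lowest median was -0.47. The lowest median was -0.40 with arrays centred on their median, -0.42 without _x_at and _s_at probe sets, -0.43 in windows of 5 Mb and -0.26 in windows of 20 Mb. Low windows numbered 9 in windows of 5 Mb, 6 in windows shifted by 5 Mb, 8 at a threshold of -0.1 and 1 at -0.3. At an adjusted p under 0.01 in limma, 262 were called lower and 28 higher, beside 12.5% and 6.58% of all probe sets. With 1 array left out at a time, lower calls ranged over 273 to 383, higher calls over 31 to 108, the median over -0.11 to -0.067, low windows over 3 to 4 and the lowest window median over -0.41 to -0.28. In those fits 13.2% to 22.5% of all probe sets were called lower and 7.05% to 18.0% higher. The replicate numbers mark no shared source in the labels, and same-numbered arrays of both groups correlated at 0.125, -0.0204 and 0.173 in their deviations from the group means. With the replicate number as a block, 333 were called lower and 88 higher, beside 20.1% and 13.8% of all probe sets, with 3 low windows. That fit changed 4 calls of named probe sets, 2 lost and 2 gained. The spike-in covariate lost 54 and gained 3 of 165 named probe sets' calls, and leaving out scrambled array 1, 2 or 3 lost 16, 17 and 20. The cause of these changes was not tested. Signal over background could not be used to judge dim probe sets, since levels had been removed.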

Other observations

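Outside the rule on single genes, 30 probe sets aligned first to chromosome 10, of which 20 named several genes and 10 none. Their median difference was -0.022. In 9 of them every Sox2 shRNA array was below every scrambled shRNA array, and in 5 every Sox2 shRNA array was above. Over all probe sets tested these orders were seen in 26.9% and 26.5%, and nothing is read from the counts.

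By component terms, probe sets of the cytosol and of the endoplasmic reticulum were also lower on chromosome 10 than the same terms elsewhere, as a description with no test. The 64 cytosolic ones had a median of -0.29, with 42.2% called lower and 15.6% called higher, against a median of 0.043 with 23.0% called lower and 14.1% called higher on all other chromosomes. The 69 of the endoplasmic reticulum, the site of membrane and secretory protein synthesis, had a median of -0.35, with 44.9% called lower and 10.1% called higher, against 0.047 with 23.2% called lower and 15.8% called higher elsewhere.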
